A study of Mus musculus with 10 samples.

Results

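The cytosolic heat shock proteins are the chaperones that fold and refold proteins outside the endoplasmic reticulum and mitochondria. Their 10 genes were taken by symbol from the deposited tables, which hold 29564 genes, and all 10 were found: Hspa1a, Hspa1b, Hspa8, Hsp90aa1, Hsp90ab1, Hspb1, Hspb7, Cryab, Dnajb1 and Hsph1. Messenger RNA of the left ventricle was sequenced from 5 control mice and 5 HFD+mTAC mice. All 10 were WT mice of the C57BL6 strain by the labels and male C57BL/6J mice by the methods of the study, and all were labelled as given vehicle. HFD+mTAC mice were fed a high-fat diet and had a moderate constriction of the transverse aorta, which together are used to model a heart failure whose ejection fraction is preserved. Control mice had standard chow and no constriction. The vehicle was given daily at 10 mL/kg for 6 to 9 weeks by the protocol in the labels, which names the HFD+mTAC mice. Diet and constriction came together in 1 group, so that their parts cannot be told apart. The mice are named here by their labels, controls from TT-583 to TT-587 and HFD+mTAC from TT-588 on to TT-592, and values are listed in that order.

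Chaperones of the Hsp70 family bind unfolded stretches of other proteins and are driven by J-domain proteins, which start their ATP hydrolysis, and by nucleotide exchange factors, which release ADP. Hsp90 proteins act later, on nearly folded clients such as kinases and steroid receptors, while small heat shock proteins hold unfolding proteins without ATP. When unfolded protein builds up, heat shock factor 1 binds inverted repeats of the bases GAA in promoters and raises the inducible genes, of which Hspa1a and Hspa1b are the classic examples. In heart muscle the small heat shock proteins bind desmin and filaments of the sarcomere such as titin.

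Each mouse had between 34.2 and 53.7 M estimated counts. Mitochondrial transcripts took 43.8 to 52.7% of them, with the lowest shares in control mice TT-583 and TT-584. Levels are given in CPM, in which counts are scaled so that the protein-coding genes tested have the same total in every mouse, after an adjustment for library composition. CPM is not corrected for transcript length. All 8 cardiomyocyte markers checked were detected, and their summed level was 64971 to 70604 CPM in control mice and 56540 to 64013 CPM in HFD+mTAC mice, without overlap. The mean log2 level of these markers gave p = 0.0159 in an exact permutation test (adjusted p = 0.19 over 16 context measures). In a homogenate of the ventricle, fewer cells of a type and less RNA per cell cannot be told apart, and the part of the marker difference in the values below was not tested.

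Promoter sequence is shown first, because Hspa1a and Hspa1b moved together in these mice and are nearly copies of each other. The RefSeq table of promoters, on GRCm38.p6, held 6 of the 10 members, Hspa1a, Hspa1b, Hspb1, Hspb7, Dnajb1 and Hsph1. The 250 bases before each start were searched for pairs of heat shock units, GAANNTTC and TTCNNGAA, each of which reads the same on both strands. The 100 bases from -150 to -51 are printed for 4 members, on the strand of the gene, with matches to GAANNTTC in capitals. They lie at chr17:34972207-34972306 for Hspa1a, chr17:34959289-34959388 for Hspa1b, chr5:135887769-135887868 for Hspb1 and chr4:141420629-141420728 for Hspb7.
Hspa1a: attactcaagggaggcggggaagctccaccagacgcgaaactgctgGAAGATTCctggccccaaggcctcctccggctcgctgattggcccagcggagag
Hspa1b: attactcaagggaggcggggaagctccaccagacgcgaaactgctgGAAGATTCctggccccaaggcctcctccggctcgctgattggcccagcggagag
Hspb1: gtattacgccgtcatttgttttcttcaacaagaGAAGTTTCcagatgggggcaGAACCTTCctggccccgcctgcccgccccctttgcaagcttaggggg
Hspb7: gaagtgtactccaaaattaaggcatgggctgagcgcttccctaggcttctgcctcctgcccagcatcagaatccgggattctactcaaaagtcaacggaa

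The printed bases of Hspa1a and Hspa1b differed at 0 of 100 positions, and their whole 250 upstream bases at 3 positions. GAANNTTC began at -104 in both, and at -117 and -97 in Hspb1. TTCNNGAA was found before both starts listed for Hsph1, at -33 and at -54, which is the same site counted from 2 nearby starts. No such pair was found in Hspb7 or in the 2 promoters listed for Dnajb1, a match to these letters being a description and not a bound site. Of all 32851 promoters of the same length, 6.69% held GAANNTTC, 7.17% held TTCNNGAA and 12.8% held either. Triplets, which add a further inverted unit 2 bases on, were also searched for, and none was found in the promoters of these members. Of all promoters, 0.247% held a triplet beginning GAANNTTC and 0.244% one beginning TTCNNGAA.

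No member was called different between HFD+mTAC and control mice. With edgeR, 8 of 13294 genes passed an adjusted p of 0.05, which is 0.0602%. By the filter on low counts 9 of the 10 members were tested and 0 were called, Hsph1 being the one that did not pass. At an unadjusted p under 0.05 there were 2 members, Hspa1a and Hspa1b, beside 8.27% of all genes. DESeq2 called 120 genes and no member. In 0 of the 9 members did the groups separate without overlap in CPM, against 1.95% of all genes. The median log2 fold change of the 9 members was -0.19, while that of all genes tested was 0.00. In Hspa1a, Hspa1b, Hsp90aa1 and Dnajb1 the mice of a group spread more widely than in at least 95.6% of the genes with a mean of at least 5 CPM, while Hspb7 spread more widely than 36.0%, Hspa8 than 62.4% and Hsp90ab1 than 73.9% of them.

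**Figure D1:**
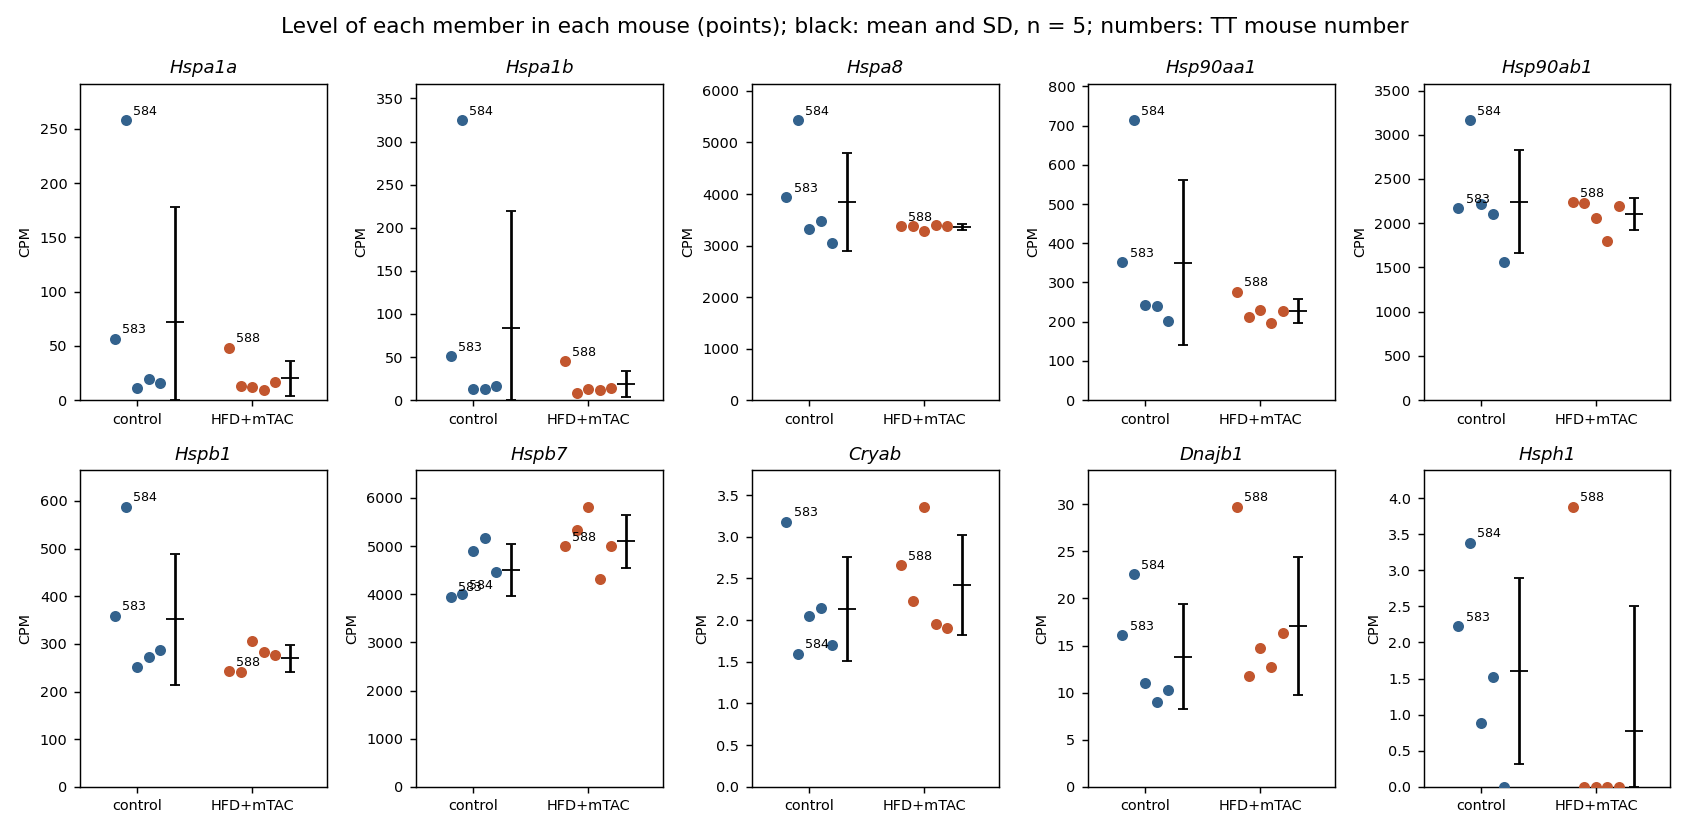
The level of each of the 10 members in CPM (vertical axes, linear from 0) in each control mouse (blue) and HFD+mTAC mouse (orange); black marks are the mean and SD of 5 mice, with the bar stopped at 0 where the SD exceeds the mean. Control mouse TT-584 is the highest of 10 mice in 6 of the 10 panels, and HFD+mTAC mouse TT-588 is the highest in Dnajb1 and Hsph1.

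Hspa1a and Hspa1b encode the stress-inducible Hsp70 and sit 9951 bases apart on the minus strand of chromosome 17 (GRCm38, GENCODE M21), Hspa1a at chr17:34969190-34972156 and Hspa1b at chr17:34956436-34959238. Each has 1 annotated transcript. Hspa1a was 56.7, 258 (TT-584), 11.4, 19.2 and 15.6 CPM in the controls and 48.3 (TT-588), 13.4, 12.4, 9.75 and 16.9 CPM in HFD+mTAC. Hspa1b was 50.8, 325, 13.1, 13.2 and 15.9 CPM in the controls and 45.2, 8.32, 12.4, 11.9 and 13.7 CPM in HFD+mTAC. In both genes control mice TT-583 and TT-584 and HFD+mTAC mouse TT-588 stood above the other 7 mice, whose values mixed across the groups. The control means were 72.2 ± 106 CPM for Hspa1a and 83.6 ± 136 CPM for Hspa1b (SD, n = 5), and those of HFD+mTAC were 20.1 ± 15.9 and 18.3 ± 15.2 CPM (SD, n = 5). The SD of the controls was larger than their mean.

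The log2 fold change of Hspa1a was -1.84 (standard error, SE, of 0.81, edgeR adjusted p = 0.575) and that of Hspa1b -2.19 (SE 0.90, edgeR adjusted p = 0.525). A single mouse carried most of it. Without control mouse TT-584 the values were -0.36 and -0.35, and without HFD+mTAC mouse TT-588 they were -2.47 and -2.86. Without TT-583 and TT-584 together, a choice made after their values were seen, the sign turned, to 0.39 for Hspa1a and 0.38 for Hspa1b. In CPM the means of the groups differed by less than the SD of the controls, and the log2 fold change depended on which mice were kept.

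Reads of the pair cannot be fully told apart, since 47.1% of the 100-base windows of the Hspa1a transcript, in GENCODE M21, are also in Hspa1b, and 58.8% of its 50-base windows. Both lengths are given because the labels and the methods name different read lengths. Added together, the genes had a log2 fold change of -2.02 (edgeR adjusted p = 0.544). Residual spread around the group means was 1.44 for Hspa1a and 1.55 for Hspa1b (SD on the log2 scale), wider than in 99.3% of the genes with a mean of at least 5 CPM.

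Hspa8 encodes Hsc70, the constitutive Hsp70 (chr9:40800984-40810087). Its level was 3942, 5436, 3329, 3478 and 3045 CPM in controls and 3378, 3379, 3274, 3399 and 3373 CPM in HFD+mTAC. In CPM the HFD+mTAC mice lay within a 1.04-fold range and inside that of the controls, which spanned 1.78-fold with TT-584 at the top. The narrow range did not hold in TPM, where Hspa8 ran from 122 to 233 in HFD+mTAC and from 106 to 384 in controls. Its log2 fold change was -0.19 (SE 0.14, edgeR adjusted p = 0.778) and -0.04 without TT-584. Of its 100-base windows 28.2%, and of its 50-base windows 38.6%, also occur in transcripts of other genes, mostly Gm15459, Gm8355 and Gm6210.

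Dnajb1 encodes Hsp40, the J-domain protein that is induced together with Hsp70 (chr8:83608193-83612653). It was 16.1, 22.6, 11.0, 9.06 and 10.3 CPM in controls and 29.7, 11.8, 14.7, 12.7 and 16.3 CPM in HFD+mTAC. TT-588 and TT-584 were the highest mice, as among those high in Hspa1a, but here TT-588 exceeded TT-584, and TT-583 lay just below TT-592. Its log2 fold change was 0.30 (SE 0.29, edgeR adjusted p = 0.859), and it was 0.55 without TT-584, 0.75 without TT-583 and TT-584, 0.18 without TT-586, and -0.003 without TT-588.

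Hsph1 encodes Hsp105, the cytosolic Hsp110 that releases ADP from Hsp70 (chr5:149614287-149636376). It was 2.23, 3.38, 0.891, 1.52 and 0 CPM in controls, and 3.88 CPM in TT-588 with 0 counts in the other 4 HFD+mTAC mice. The 3 highest mice were again TT-588, TT-584 and TT-583. A count of 0 allows up to 3 counts, which is 0.181 to 0.236 CPM in the mice at 0. These limits and the estimated counts, 64.3 at most, cover counting error alone. Fitted without the filter on low counts, Hsph1 had a log2 fold change of -1.04 (edgeR adjusted p = 0.859), a value that depends on the zeros.

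Hsp90aa1 encodes the inducible Hsp90 alpha (chr12:110690605-110702728) and Hsp90ab1 the constitutive Hsp90 beta (chr17:45567775-45573271). Hsp90aa1 was 352, 714, 243, 241 and 202 CPM in controls and 277, 211, 229, 195 and 226 CPM in HFD+mTAC. Control mouse TT-584 was the highest of all mice and TT-583 came next, while the other 3 controls lay within the range of the HFD+mTAC mice. The means were 351 ± 211 CPM in controls and 228 ± 30.5 CPM in HFD+mTAC (SD, n = 5). The log2 fold change was -0.62 (SE 0.29, edgeR adjusted p = 0.607), -0.19 without TT-584 and -0.01 without TT-583 and TT-584.

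Hsp90ab1 was 2166, 3166, 2221, 2099 and 1567 CPM in controls and 2235, 2231, 2055, 1799 and 2197 CPM in HFD+mTAC. All 5 HFD+mTAC mice lay inside the range of the controls, whose highest and lowest mice were TT-584 and TT-587. Its log2 fold change of -0.09 (SE 0.15, edgeR adjusted p = 0.923) became 0.06 without TT-584, -0.20 without TT-587 and -0.04 without TT-591. Windows shared with other genes made up 38.0% of Hsp90aa1 at 100 bases and 47.5% at 50 bases, mostly with Gm12346, and 0.0% and 3.4% of Hsp90ab1.

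**Figure D2:**
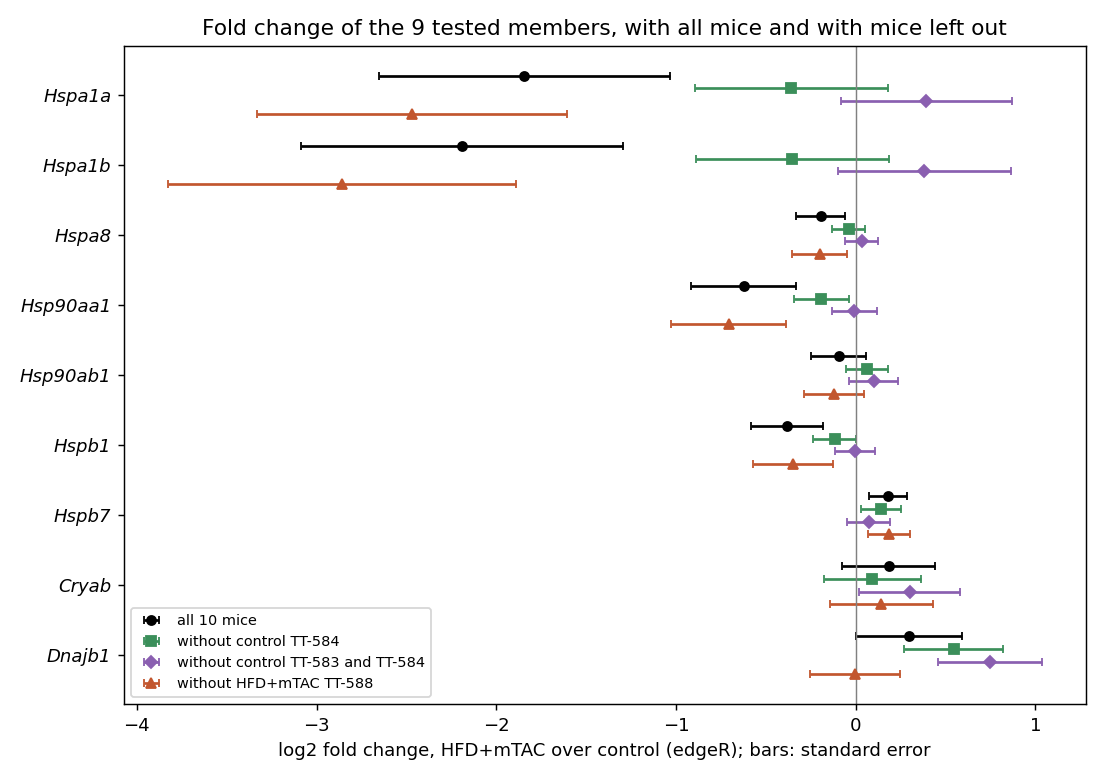
The log2 fold change of HFD+mTAC over control (horizontal axis) with its standard error for the 9 tested members, from all 10 mice and with mice left out. The values of Hspa1a and Hspa1b lie near -2 with all mice, near -0.4 without control mouse TT-584 and above 0 without TT-583 and TT-584, while Hspb7 stays between 0.07 and 0.18 in the 4 fits shown.

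Hspb1 encodes Hsp27, the small heat shock protein called Hsp25 in mice, which holds unfolding proteins and binds actin (chr5:135887919-135889563). It was 359, 587.5, 252.4, 272 and 287 CPM in controls and 243, 240, 307, 284 and 277 CPM in HFD+mTAC. Control mice TT-584 and TT-583 were again the highest, but TT-588, which was high in Hspa1a, Dnajb1 and Hsph1, was the second lowest of its group here. The log2 fold change was -0.38 (SE 0.20, edgeR adjusted p = 0.670) and -0.12 without TT-584. Of its windows, 44.0% at 100 bases and 48.8% at 50 bases are shared with the pseudogene Hsp25-ps1.

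Hspb7, or cvHsp, is a small heat shock protein of heart and skeletal muscle that binds filamin C (chr4:141420779-141425311). It was 3946, 4000, 4907, 5167 and 4473 CPM in controls and 5003, 5341, 5817, 4325 and 5002 CPM in HFD+mTAC. In CPM the order of the mice differed from that of the inducible genes, with TT-583 and TT-584 the lowest of all 10. In TPM this did not hold. There TT-583 and TT-584 had 239 and 256, above TT-587 at 218, TT-589 at 237 and TT-591 at 206. The means were 4499 ± 541 and 5098 ± 546 CPM (SD, n = 5), a log2 fold change of 0.18 (SE 0.11, edgeR adjusted p = 0.712), which was 0.07 without TT-583 and TT-584, and the groups overlapped.

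Cryab encodes alpha B-crystallin, which is known as an abundant chaperone of desmin in heart muscle (chr9:50751325-50756636). In these tables its row held 21.7 to 66.2 counts per mouse. It was 3.18, 1.595, 2.05, 2.14 and 1.71 CPM in controls and 2.66, 2.22, 3.36, 1.95 and 1.91 CPM in HFD+mTAC. The groups overlapped, with a log2 fold change of 0.18 (SE 0.26, edgeR adjusted p = 0.913), and single mice moved it, to 0.38 without TT-583, 0.09 without TT-584, 0.122 without TT-587 and 0.04 without TT-590. None of its windows of 50 or 100 bases is shared with another gene on the same strand, and 9.9% of those of 100 bases match the opposite strand, at Hspb2. Such matches at 100 bases were more frequent in Hspb1 (32.1%), Hspa8 (26.3%) and Hspa1a (17.6%). The small heat shock protein Hspb6 stood at 431 to 670 in the same libraries in TPM, a scale that also corrects counts for transcript length, while Cryab stood at 0.299 to 0.793 TPM. The cardiomyocyte marker Myh6, known as the main myosin heavy chain of the adult mouse heart, was likewise low at 17.7 to 37.1 TPM, against 6934 to 9942 TPM for Myl2. Whether the rows of Cryab and Myh6 hold all reads of these genes was not tested, so the level of Cryab is given with that limit.

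Ordered by TPM in the controls, the members fell into an abundant and a scarce set. Hspb7 had 250 ± 24.1 TPM, Hspa8 214 ± 103, Hspb1 199 ± 98.7 and Hsp90ab1 198 ± 78.9 (SD, n = 5), and neighbours in this order differed by less than their spread. The place of Hspb1 rests on its short effective length, described below. In mean CPM per kilobase of the longest transcript it stood at 334, below Hspa8 at 1141 and Hsp90ab1 at 862. In TPM, Hsp90aa1 followed with 21.1 ± 18.8, then Hspa1b with 8.71 ± 14.6 and Hspa1a with 4.60 ± 7.10. Cryab, Dnajb1 and Hsph1 were below 1 TPM in every mouse, and whether the rows of Dnajb1 and Hsph1 hold all reads of their genes was likewise not tested. The order was the same in HFD+mTAC for the top 2, with Hspb7 at 270 ± 50.3 TPM and Hspa8 at 180 ± 52.9, and Hsp90ab1 stood at 179 ± 49.4.

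TPM and CPM can part where the effective length, which the authors' quantification gave for each gene and mouse, differs between mice. That length ran from 2248 to 3894 bases in Hspa8 and from 1893 to 3318 bases in Hsp90aa1, a 1.75-fold range for the latter, but within 1.15-fold in Hspa1a. With these lengths as an offset in the same edgeR fit, the log2 fold change was -0.38 in Hsp90aa1, -0.10 in Hspa8 and -0.25 in Hspb1, closer to 0 than without them, and -1.85 in Hspa1a and -2.13 in Hspa1b. With limma on log2(TPM + 1), which changes the unit and the method together, it was -0.13 in Hsp90aa1, -0.02 in Hspa8, -0.18 in Hspb1, -0.94 in Hspa1a and -1.07 in Hspa1b. A smaller pseudocount, log2(TPM + 0.1), left Hspa1a at -1.01 and Hspa1b at -1.119 on that scale. Mean effective length was 2.33 times the longest annotated transcript in Dnajb1, 0.295 times in Hspb1 and 0.596 times in Hspa1b. It was also 1.36 times in Hsph1, 0.712 times in Hsp90ab1 and 0.632 times in Cryab. The TPM of these genes thus rests on a length that differs from the longest annotated transcript, for a cause that was not tested.

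Shares within a mouse do not depend on library scaling. Hsp90aa1 made up 8.99, 14.4, 5.83, 6.16 and 7.66% of Hsp90 TPM in controls and 6.28, 7.64, 7.34, 8.41 and 6.77% in HFD+mTAC. In TPM the highest mouse was TT-584 and the next TT-583, and the other controls overlapped the HFD+mTAC mice. The means of 8.61 ± 3.49% and 7.29 ± 0.816% (SD, n = 5) gave p = 0.579 (two-sided exact permutation test, adjusted p = 0.627 over 3 shares). The same share of counts, which are not corrected for length, was 12.8 ± 3.52% in controls and 9.77 ± 0.875% in HFD+mTAC (SD, n = 5), with p = 0.0556 (exact permutation test, adjusted p = 0.167).

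The inducible Hspa1a and Hspa1b made up 4.33, 11.9, 0.835, 1.21 and 1.81% of the Hsp70 TPM (these genes plus Hspa8) in controls and 2.75, 0.679, 1.21, 1.123 and 1.09% in HFD+mTAC. TT-584, TT-583 and TT-588 were the 3 highest mice (p = 0.222, exact permutation test, adjusted p = 0.627). Hspa1a took 33.1 to 45.9% of the TPM of Hspa1a plus Hspa1b in controls and 31.4 to 48.0% in HFD+mTAC (p = 0.627, exact permutation test, adjusted p = 0.627). By counts, without the short effective length of Hspa1b, it took 44.3 to 59.3% in controls and 45.0 to 61.6% in HFD+mTAC (p = 0.556, exact permutation test, adjusted p = 0.556). Its share of TPM in TT-584, at 33.1%, was the lowest of the controls, although both genes were highest there.

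**Figure D3:**
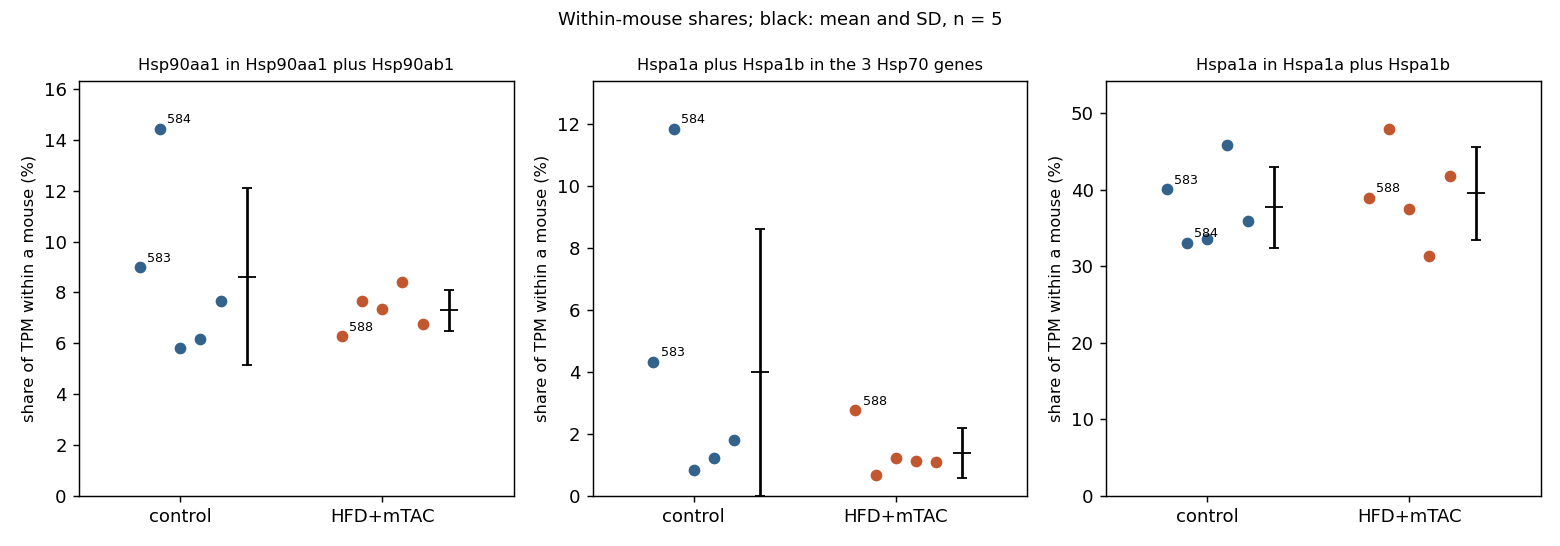
Shares of TPM within each mouse, in percent (vertical axes from 0), for control mice (blue) and HFD+mTAC mice (orange), with mean and SD of 5 mice in black and the bar stopped at 0. Control mouse TT-584 stands at 14.4% in the Hsp90 share and 11.9% in the share of inducible Hsp70, and within the other mice in the share of Hspa1a.

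Some members varied together from mouse to mouse. Over 10 mice, with group means removed, 14 of the 45 pairs had a Pearson r over 0.8 in log2 CPM. Another 14 pairs had r below 0. By permutation, 7 pairs had an adjusted p under 0.05. The share of such pairs among all genes tested was not computed. The closest pair was Hspa1a and Hspa1b, whose shared windows can add to it, with r = 0.98 (permutation p = 0.00425, adjusted 0.0388) and Spearman's rho = 0.95 (permutation p = 0.00293, adjusted 0.0457). Hspa1b and Dnajb1, which share no 100-base window, had r = 0.92 (permutation p = 0.00062, adjusted 0.0279) and rho = 0.85 (permutation p = 0.00305, adjusted 0.0457). Hsp90aa1 and Dnajb1 had r = 0.82 (permutation p = 0.00218, adjusted 0.0388) and rho = 0.87 (permutation p = 0.00195, adjusted 0.0457). These were the 3 pairs that passed by both measures.

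Some of these relations rested on the mice that stood apart. Without the 2 mice farthest from the median of the gene named first, r was 0.88 for Hspa1a and Hspa1b, 0.84 for Hspa1b and Dnajb1, and 0.87 for Hsp90aa1 and Dnajb1. The mice left out were TT-584 and TT-588, but TT-584 and TT-587 for Hsp90aa1 and Dnajb1. That last value thus keeps TT-588, the highest mouse in Dnajb1. For Hspa8 and Hsp90ab1 it went from 0.86 to -0.00, and in log2 CPM this relation therefore rests on TT-584 and TT-587. Over all 10 mice the r of Hspa8 and Hsp90ab1 was 0.96 in log2(TPM + 1). Within groups, Hspa1b and Hspb1 had r = 0.99 in the 5 controls and -0.32 in the 5 HFD+mTAC mice, each over too few mice to test. In log2 CPM Hspb7 correlated negatively with Hspa1b, at r = -0.57 and rho = -0.61 (permutation p = 0.109 and 0.0855, adjusted 0.188 and 0.175), and did not pass. In log2(TPM + 1) the r of this pair was 0.11.

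**Figure D4:**
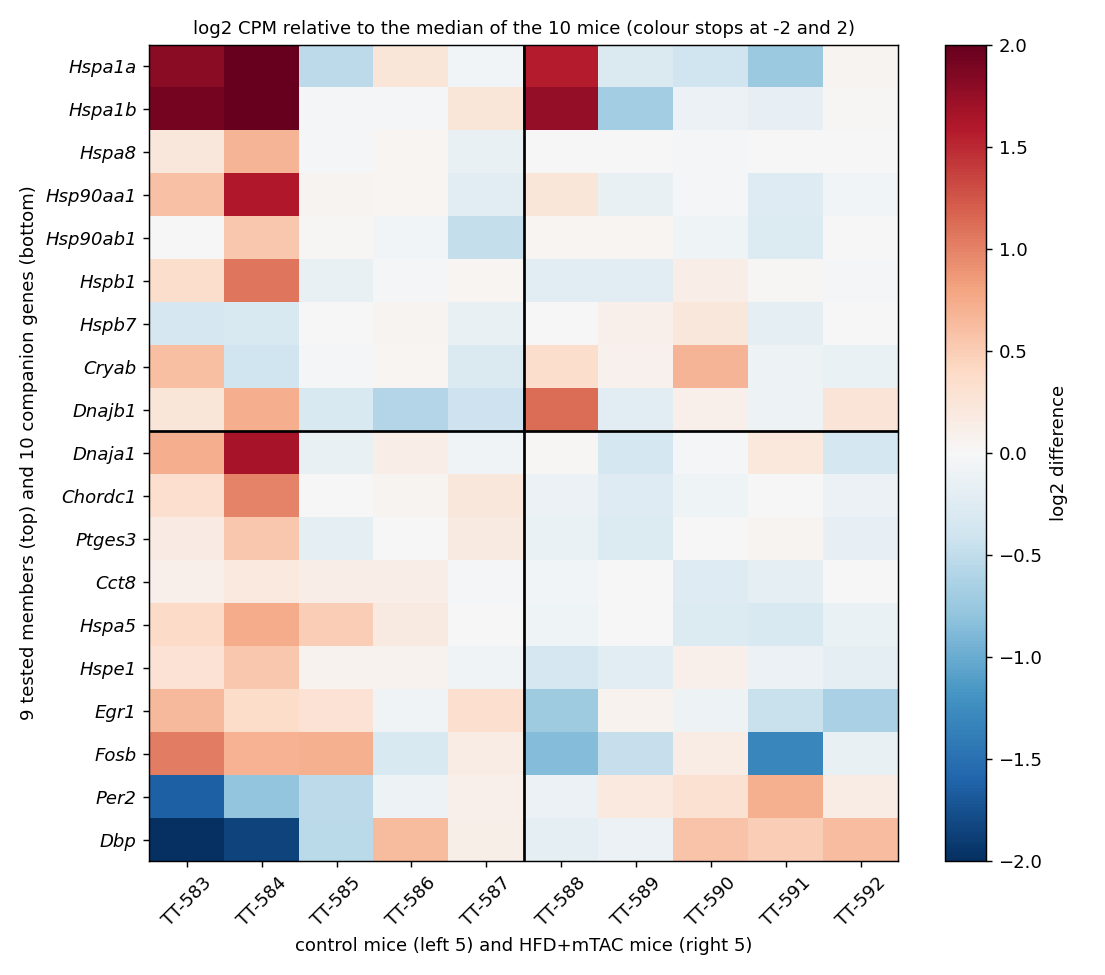
Colour gives log2 CPM relative to the median of the 10 mice, stopping at -2 and 2, for the 9 tested members (above the line) and 10 companion genes (below it) in 5 control mice (left) and 5 HFD+mTAC mice (right). Control mice TT-583 and TT-584 are red in Hspa1a, Hspa1b, Hsp90aa1 and Dnaja1 and blue in Per2 and Dbp, and TT-588 is red in Hspa1a, Hspa1b and Dnajb1.

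Genes that work with the members were compared in the same fit. Their directions are given with all 10 mice only. Fold changes without TT-584 are not given for these genes, and the counts of genes below 0 may rest in part on that mouse. Lists of other chaperones, co-chaperones and regulators held 0 called genes each, beside the 0.0602% of all genes tested. All 10 of the other cytosolic J-domain proteins had a log2 fold change below 0, with a median of -0.12, against 49.6% of all genes below 0. Dnaja1, a partner of Hsc70, was 178, 336, 96.9, 117 and 103 CPM in controls and 109, 83.8, 106, 124 and 84.2 CPM in HFD+mTAC. Like Hsp90aa1, it was highest in TT-584 and TT-583, and its log2 fold change was -0.72 (SE 0.30, edgeR adjusted p = 0.553). Dnaja2, of the same class, differed less between mice, with 408 ± 15.5 CPM in controls and 363 ± 23.4 CPM in HFD+mTAC (SD, n = 5) and a log2 fold change of -0.17 (edgeR adjusted p = 0.555).

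Among 20 co-chaperones of Hsp70 and Hsp90, 13 (65.0%) had a log2 fold change below 0, against 49.6% of all genes tested. Their median was -0.11. Chordc1, an Hsp90 partner, was 72.1, 114, 56.6, 59.2 and 67.1 CPM in controls and 52.8, 47.8, 53.9, 57.8 and 52.5 CPM in HFD+mTAC, a log2 fold change of -0.48 (edgeR adjusted p = 0.433). TT-584 was again the highest mouse. Ptges3, the Hsp90 co-chaperone p23, had a log2 fold change of -0.25 (edgeR adjusted p = 0.644).

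The chaperonin TRiC folds actin and tubulin. All 7 of its tested subunits had a log2 fold change below 0 (median -0.13), against 49.6% of all genes tested. Control mouse TT-584 was the highest mouse in 6 of the 7. Cct8 was 207 ± 11.9 CPM in controls and 179 ± 14.5 CPM in HFD+mTAC (SD, n = 5), at -0.20 (edgeR adjusted p = 0.504), and Cct3 was at -0.19 (edgeR adjusted p = 0.685). Of 10 chaperones of the endoplasmic reticulum and mitochondria, 8 (80.0%) were below 0, and TT-584 was the highest mouse in 5. Hspa5, the Hsp70 of the endoplasmic reticulum called BiP, was 884, 1133, 951, 772 and 677 CPM in controls and 639, 679, 564, 548 and 618 CPM in HFD+mTAC. Its groups nearly separated, with TT-587 of the controls just below TT-589 of HFD+mTAC, and its log2 fold change of -0.54 had the smallest adjusted p of these chaperones (SE 0.13, edgeR adjusted p = 0.246). Hspe1, the mitochondrial Hsp10, was at -0.34 (edgeR adjusted p = 0.443).

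The other lists of the family stood closer to 0. The 8 other Hsp70 and Hsp110 genes had a median log2 fold change of -0.01, with Hspa12a at -0.22 and Hspa12b at 0.21 (edgeR adjusted p = 0.778 and 0.791). Of the other small heat shock proteins 4 were tested, with a median of 0.05, Hspb3 at -0.20 and Hspb6 at 0.11 (edgeR adjusted p = 0.780 and 0.862). Of the heat shock factors and their regulators, Hsf1 was 27.8, 35.7, 11.49, 8.12 and 22.8 CPM in controls and 19.6, 10.0, 4.09, 0 and 25.2 CPM in HFD+mTAC, highest in TT-584 and TT-583, with a log2 fold change of -0.84 (SE 0.73, edgeR adjusted p = 0.824). Whether the row of Hsf1, at 0 in TT-591, holds all reads of that gene was not tested. Hdac6, a deacetylase that acts on Hsp90, had a log2 fold change of 0.11 (edgeR adjusted p = 0.899).

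How far TT-584 stood from the other controls differed between members. Its level over the median of the other 4 controls was 22.4-fold in Hspa1b, 14.8-fold in Hspa1a, 2.95-fold in Hsp90aa1, 2.12-fold in Dnajb1 and 2.10-fold in Hspb1. It was 1.597-fold in Hspa8 and 1.48-fold in Hsp90ab1, but 0.853-fold in Hspb7 and 0.761-fold in Cryab. Among companion genes Dnaja1 reached 3.06-fold, Hsf1 2.08-fold, Ahsa2, an activator of the Hsp90 ATPase, 1.88-fold and Stip1, which links Hsp70 to Hsp90, 1.77-fold, the last 2 being named after their values were seen. TT-584 was the highest of the 10 mice in 6 of the 9 tested members, against 9.69% of all genes tested. The mouse was singled out for its values in the members, so that count is a description and not a test. Genes of a list may also vary together. Among companion genes TT-584 was the highest in 11 of 20 co-chaperones and 6 of 7 TRiC subunits. It was also the highest in 5 of 10 chaperones of the endoplasmic reticulum and mitochondria and in 4 of 10 other cytosolic J-domain proteins. It was the highest in 1 of 8 other Hsp70 and Hsp110 genes, 1 of 4 other small heat shock proteins, 1 of 5 heat shock factors and regulators, 0 of 12 immediate early genes and 0 of 7 temperature and clock genes.

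Immediate early genes, which handling and stress raise within minutes, had their highest mean level in TT-583, with TT-587 next and TT-584 after it, while TT-588 was second lowest. Their mean log2 level was 7.68, 7.29, 7.20, 6.98 and 7.38 in controls and 6.52, 6.99, 7.13, 6.39 and 6.75 in HFD+mTAC (p = 0.0238, exact permutation test, adjusted p = 0.19 over 16 measures). Egr1 had a log2 fold change of -0.67 and Fosb of -0.97 (edgeR adjusted p = 0.261 and 0.320). Dbp, a clock output gene whose level swings over the day, was 11.2 and 12.3 CPM in TT-583 and TT-584 and 30.7 to 68.8 CPM in the other 8 mice, and Per2, a core clock gene, was lowest in the same 2 mice at 14.7 and 26.5 CPM. The part of any of these in the levels of the heat shock genes was not tested. The labels give no time or order of collection.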

How the data were processed

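Left ventricles of 10 mice (5 control, 5 HFD+mTAC) were grouped by the sample labels. By the methods of the study, TruSeq Stranded mRNA reads were trimmed (fastp), and salmon estimated transcript abundance against a GENCODE set for GRCm38; the labels name Salmon 1.6.0, a human build and another read layout, and the setting for strand is not given in the sources used here. The authors deposited expected counts per gene from tximport, of which 20.07% are not whole, as well as TPM values, whose columns sum to 94.8 to 96.6% of their nominal sum. The third deposited table holds effective lengths in bases, a score with no normalization that was used as offset and description. Symbols were matched to GENCODE M21: 27812 directly, 877 through older symbols and 875 not at all.

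Rounded counts entered edgeR 4.0.16 under R 4.3.3 (TMM, quasi-likelihood test, two-sided, Benjamini-Hochberg adjustment over all 13294 genes tested, threshold 0.05). Tested genes were protein-coding, outside the mitochondrial genome and had at least 1 count in 9 of 10 mice. Standard errors are the fold change divided by the root of the F statistic. The steps were tested on simulated data. Alternatives were DESeq2 1.42.0, limma 3.58.1 on log2(TPM + 1) and log2(TPM + 0.1), other scalings and filters, and each mouse left out. Shares and context measures were compared with exact permutation tests over 252 arrangements (smallest p 0.00794), pairs of members with 100000 permutations within groups of log2(CPM + 0.1). No batch or pairing is labelled. The labels list separate mice, and no pair of mice in a group agreed within counting noise (chi-square per degree of freedom at least 12.9). The members and lists were chosen with earlier results of these data known. Named genes are all members and, of each companion list, those with an adjusted p under 0.05 and in any case the 2 with the smallest p; marker lists are given by counts and range. Of the marker lists, the range of the summed level overlapped between the groups in all but the cardiomyocyte list. Lists of atrial, endothelial, fibroblast, smooth muscle and pericyte, macrophage, T and B cell, erythroid, adipocyte, mesothelial, Schwann cell and skeletal muscle markers were checked, and no marker of the 12 lists was called.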

Additional observations from a re-analysis of the deposited data

Results flagged for a closer look

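Within each group of 5 mice, a value was singled out when its gap to the next mouse exceeded 0.71 of the range of the group, which chance gives in about 1 of 20 groups of normally distributed values. Of the 20 groups formed by 10 members, 7 had such a value, 1 of them in Hsph1. By the same rule, 5.52% of the groups formed by all genes tested with a mean of at least 5 CPM had one, a level that Cryab and Hsph1 do not reach. Control mouse TT-584 stood apart in Hspa1a (gap over range 0.816, 258 CPM) and in Hspa1b (0.879, 325 CPM). HFD+mTAC mouse TT-588 stood apart in Hspa1a (0.814, 48.3 CPM), Hspa1b (0.855, 45.2 CPM), Dnajb1 (0.747, 29.7 CPM) and Hsph1 (1.0, with 3.88 CPM against 0 in the other 4). HFD+mTAC mouse TT-590 was low in Hspa8 (0.797), but at 3274 CPM in a group whose highest value was 3399. In TPM it was not the lowest of that group, with 132 against 122 in TT-591. These genes share reads or vary together, so the values are not independent.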

How the results depend on the processing

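No member was called in any of the 22 alternatives, and the smallest adjusted p of a member in them was 0.41 (Hspa1b, DESeq2). Of 197 values of single members, 189 kept their direction and 8 turned it. Hsp90ab1 was 0.0598 with limma on log2(TPM + 1) and 0.0599 on log2(TPM + 0.1), and -0.198 to 0.063 with each mouse left out. Dnajb1 was -0.0033 to 0.546 with each mouse left out. Without control mice TT-583 and TT-584, an alternative added after seeing the data because these mice were highest in several members, Hspa1a was 0.39, Hspa1b 0.38, Hspa8 0.0332 and Hsp90ab1 0.10. In that setting the group difference in the Hsp90aa1 share was 0.739 percentage points and in the inducible Hsp70 share 0.0878, against -1.33 and -2.64 with all mice.

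Calls among all genes were 8 in the reported fit, 120 with DESeq2, 1 with limma on log2(TPM + 1), 1 on log2(TPM + 0.1), 1 with the length offset, 4 without TT-583 and TT-584, and 1 to 9 with each mouse left out. Pairs of members with an adjusted p under 0.05 numbered 7 in log2 CPM and 22 in log2(TPM + 1); pairs with r over 0.8 numbered 14, and 6 without the 2 farthest mice. The causes were not tested. No paired analysis was possible because the groups share no replicate numbers. Counts were fewest for Hsph1 and Cryab, at 0 to 66.2 per mouse.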
